A study of Mus musculus with 16 samples.

Results

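Aminoacyl-tRNA synthetases are the enzymes that join each amino acid to its transfer RNA, and 36 of their genes were followed here in brown adipose tissue (BAT) and gonadal white adipose tissue (gWAT) of mice that lack Pgam1, phosphoglycerate mutase 1 of glycolysis, in adipocytes. The genes were chosen by name: 20 encode cytosolic enzymes, and 16, whose symbols end in 2, encode the mitochondrial enzymes. All 36 were found among the 22911 genes with a symbol on the array, and all 36 were well above background on every one of the 16 arrays. The 16 arrays formed 4 groups of 4, with BAT or gWAT from Adipo-Pgam1 KO mice (Adipoq-Cre+; Pgam1 flox/flox) or from littermate controls (Adipoq-Cre-; Pgam1 flox/flox), so that the floxed alleles were carried by every animal. The adiponectin promoter drives Cre in adipocytes, and the other cells of the tissue keep Pgam1. The mice were male, of strain C57BL/6NCrSlc, kept at 23 °C on normal chow and 16 weeks old, except that replicate 4 of the Adipo-Pgam1 KO mice was 14 weeks old in both depots.

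The cytosolic enzymes charge the transfer RNAs used by the ribosomes that read nuclear messages. The mitochondrial enzymes, also encoded in the nucleus, are imported into mitochondria and serve the synthesis of the few respiratory chain subunits that mitochondrial DNA encodes, a process that brown adipocytes, rich in mitochondria, use heavily. For most amino acids the enzymes of the 2 compartments come from separate genes, whereas Gars and Kars each make the enzyme for both. Several cytosolic synthetase genes are known targets of Atf4, the transcription factor of the integrated stress response, and Wars is known to be induced by interferon.

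Values are log2 intensities relative to the 75th percentile of the same array, so that 0 stands for a signal at that percentile, and a change is the difference of the group means on this scale. In BAT, that percentile was at 401 to 451 for controls and 650 to 916 for knockouts, and in gWAT at 570 to 855 for controls and 657 to 831 for the arrays labelled KO. Pgam1 itself checked the labels. In BAT its level was 7.94 ± 0.11 (SD, n = 4) without Cre and 6.20 ± 0.17 (SD, n = 4) with Cre. In gWAT the controls averaged 5.36 ± 0.29 (SD, n = 4) and the arrays with the KO label 6.31 ± 0.25 (SD, n = 4), which goes against the label, and the gWAT arrays are therefore named by their label throughout. The arrays lay on 3 slides. In BAT, 3 controls lay on a slide of their own, and the fourth shared a slide with all 4 Adipo-Pgam1 KO arrays. The slide of the 4 gWAT arrays labelled Adipo-Pgam1 KO held only 1 gWAT control and was scanned on another day than the rest. The markers of brown adipocytes were well above background on all BAT arrays, and Ucp1 was not on any gWAT control array.

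In BAT, the cytosolic and mitochondrial enzymes moved apart. Of the 20 cytosolic genes, 15 rose and 3 fell in the knockouts. Their changes ran from -0.57 to 1.55 around a median of 0.56. Of the 16 mitochondrial genes, 10 fell and none rose, with a median of -0.62 and a range from -1.29 to 0.17. Among all 14280 genes tested in BAT, 61.5% were past the threshold of an adjusted p of 0.05 by limma, 27.5% higher and 34% lower, with a median of -0.081. At an unadjusted p of 0.05 the number of mitochondrial genes that were higher was also 0, both by limma and by the methods' t-test. A change above 0 of any size was seen for 16 cytosolic and 3 mitochondrial genes, against 45.7% of all genes. The groups did not overlap for 17 cytosolic and 11 mitochondrial genes, against 57.1% of all genes.

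**Figure D1:**
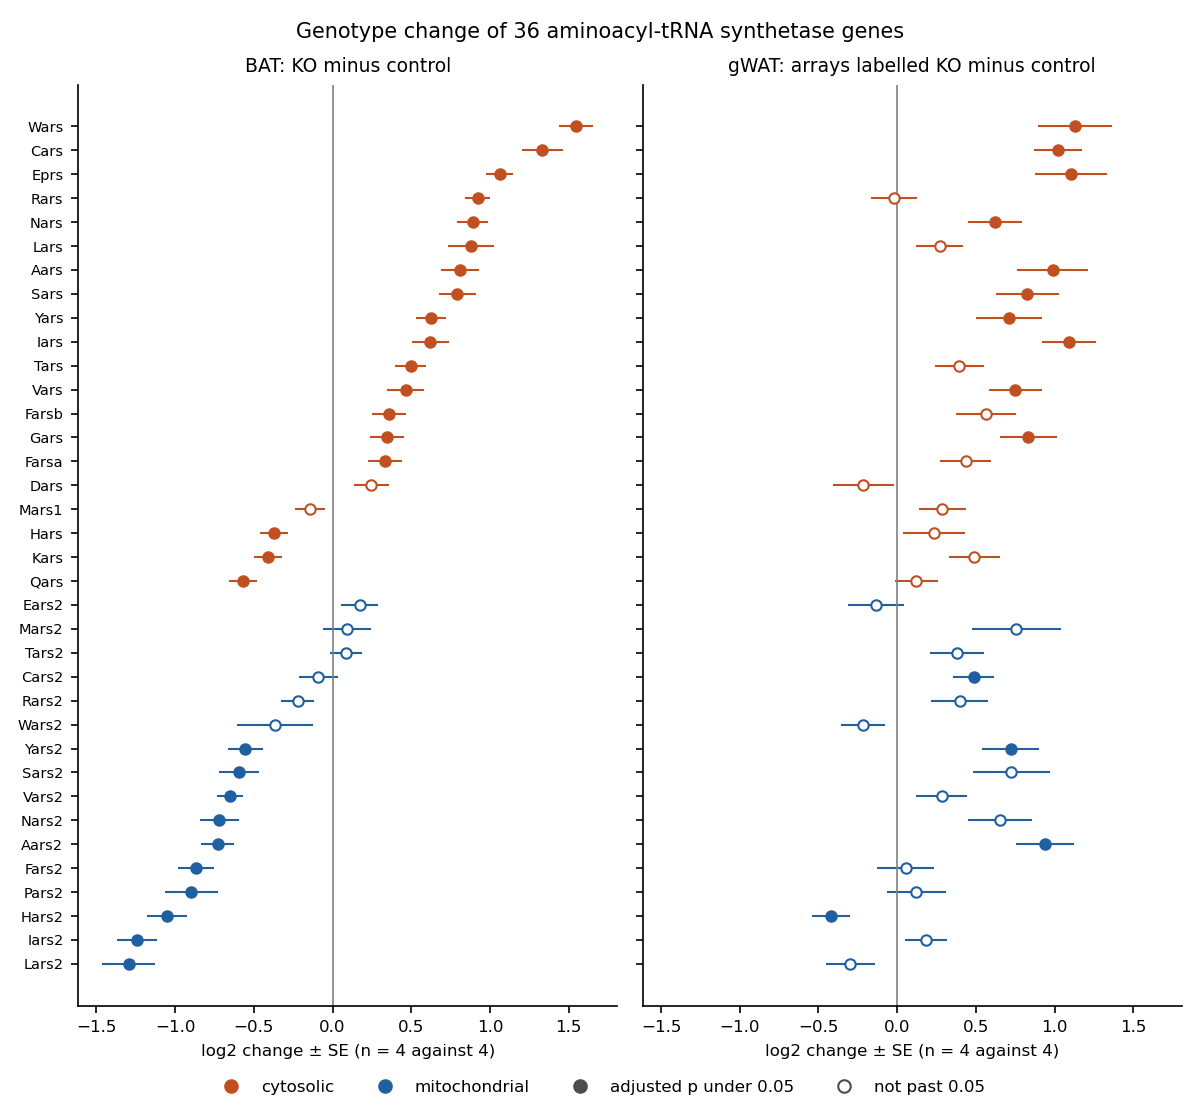
Log2 change of the 36 genes (x axis) between Adipo-Pgam1 KO and control arrays in BAT (left) and gWAT (right), as points with their standard error from limma, n = 4 against 4, with filled points past an adjusted p of 0.05. In BAT the cytosolic genes lie mostly to the right of 0 and the mitochondrial genes mostly to the left, whereas in gWAT the filled points of both classes lie to the right, except Hars2 at -0.42.

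Wars, the cytosolic tryptophan enzyme, rose most. It stood at 4.59, 4.53, 4.73 and 4.45 in the BAT controls and at 6.04, 6.01, 6.32 and 6.11 in Adipo-Pgam1 KO mice. All 4 knockout arrays lay above all controls, and the log2 change was 1.55 (standard error 0.11, limma adjusted p = 1.31e-05), a 2.92-fold rise. Cars, for cysteine, stood at 2.50, 2.52, 2.70 and 2.12 in controls and at 3.74, 3.72, 3.93 and 3.78 in knockouts, without overlap, and its change was 1.33 (standard error 0.13, adjusted p = 5.7e-05). Eprs is a single protein that carries the enzymes for glutamate and proline. Its level was 4.12, 4.11, 4.07 and 3.98 in controls against 5.04, 5.10, 5.24 and 5.15 in knockouts, a change of 1.06 (standard error 0.088, adjusted p = 2.54e-05). Rars, for arginine, stood at 1.69, 1.73, 1.65 and 1.74 in controls and at 2.62, 2.59, 2.70 and 2.59 in knockouts. The spread within either group was thus small beside its change of 0.92 (standard error 0.081, adjusted p = 3.22e-05). Wars, Cars, Eprs and Rars were higher and past the threshold in every alternative fit of the BAT arrays, the scalings included.

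Of the other cytosolic genes that rose, Nars, Lars, Aars and Sars, for asparagine, leucine, alanine and serine, did so by 0.79 to 0.89. Iars, Yars, Tars and Vars, for isoleucine, tyrosine, threonine and valine, rose by 0.47 to 0.62. Farsa and Farsb, which encode the catalytic and the other subunit of the phenylalanine enzyme, rose by 0.33 and 0.36, and Gars rose by 0.35. The genes that fell were Qars, for glutamine, at -0.57 (standard error 0.088, adjusted p = 0.000594), Kars with -0.41 and Hars, for histidine, with -0.37. Dars, for aspartate, at 0.25 (adjusted p = 0.0876), and Mars1, for methionine, at -0.14 (adjusted p = 0.224), were not past the threshold. Other probes gave other values for some of these genes: a second probe of Yars stood at -0.064 (adjusted p = 0.784), that of Qars at 0.064 (adjusted p = 0.723), and those of Farsa at 0.11 and -0.062.

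In mammals a part of the cytosolic enzymes is held in the multisynthetase complex, to which Eprs, Iars, Lars, Qars, Mars1, Kars, Rars and Dars belong. Of these 8, a list written after their values were seen, 4 rose, 2 fell and 2 were not past the threshold in BAT, with a median of 0.43. Of the 12 outside the complex, 11 rose and Hars fell, with a median of 0.56. The genes that fell thus came from both sets. The complex is built on the scaffold proteins Aimp1, Aimp2 and Eef1e1, which rose in BAT by 0.38, 0.76 and 0.38. They were the 3 that rose on a list of 8 genes that held the scaffold and relatives of the synthetases. The other 5 genes on it fell, led by Tarsl2, a relative of the cytosolic threonine enzyme, at -1.11 (standard error 0.14, adjusted p = 0.000174), and by Dtd1, which removes D-amino acids from transfer RNA, with -0.78.

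Lars2, the mitochondrial leucine enzyme, fell most in BAT. Its level was 3.69, 3.64, 3.61 and 3.45 in controls and 2.76, 2.20, 1.94 and 2.30 in knockouts. The log2 change, -1.29 (standard error 0.17, adjusted p = 0.000214), left a relative expression of 0.408. Iars2, for isoleucine, stood at 3.42, 3.40, 3.45 and 3.16 in controls and at 2.38, 1.97, 1.95 and 2.16 in knockouts, a change of -1.24 (standard error 0.13, adjusted p = 6.45e-05). In both genes all 4 knockout arrays lay below all 4 controls. Hars2, for histidine, stood at 2.63, 2.89, 2.88 and 2.39 in controls and at 1.62, 1.58, 1.62 and 1.76 in knockouts, and changed by -1.05 (standard error 0.13, adjusted p = 0.000164). Pars2, for proline, stood at 1.74, 1.79, 1.83 and 1.79 in controls and at 1.0, 0.49, 1.34 and 0.73 in knockouts. The Pars2 values scattered widely among the knockouts but stayed below all controls, and the change was -0.90 (standard error 0.17, adjusted p = 0.00183). Fars2, Aars2, Nars2, Vars2, Sars2 and Yars2, the enzymes for phenylalanine, alanine, asparagine, valine, serine and tyrosine, fell by 0.55 to 0.87. Under Actb and Rplp0 scaling all 16 mitochondrial genes were lower and past the threshold. That scaling called 10818 of all 14280 genes, 17.7% of them higher.

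**Figure D2:**
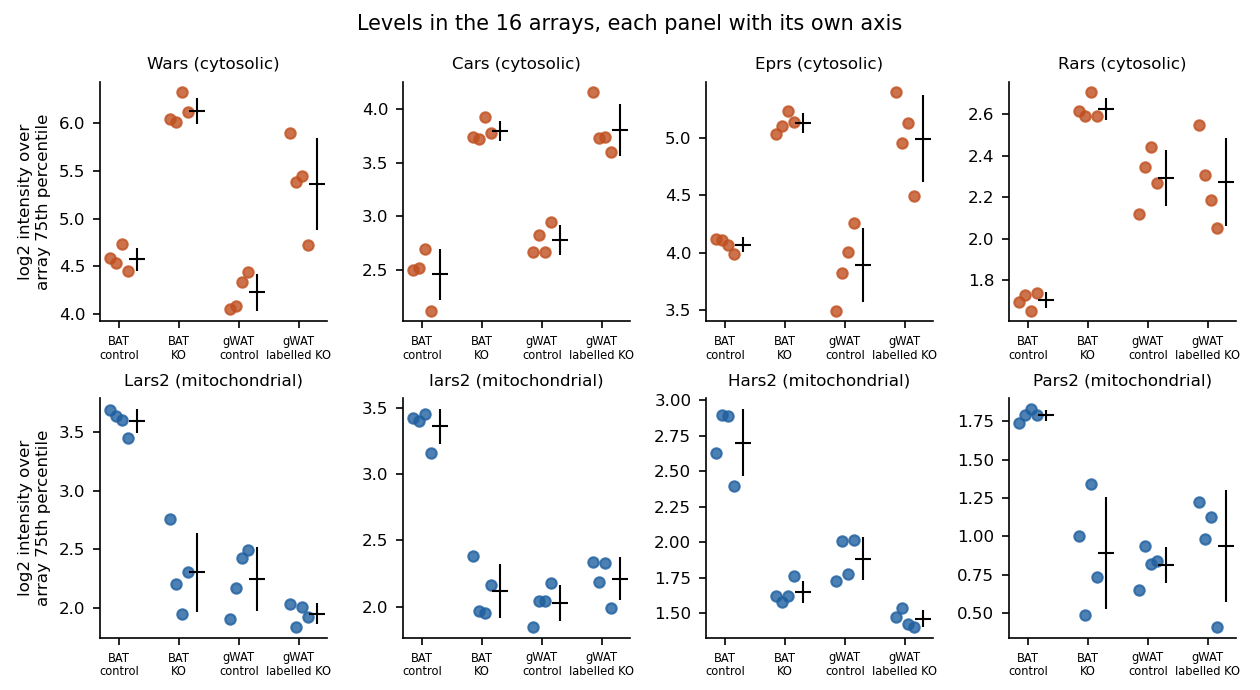
Log2 intensity over the 75th percentile of the array (y axis, own range in each panel) of the 4 cytosolic and the 4 mitochondrial genes with the largest changes in BAT, in the 16 arrays by group, with mean ± SD (n = 4). In BAT no knockout array overlaps the controls in any panel, while in gWAT Rars, Lars2, Iars2 and Pars2 overlap.

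The 6 mitochondrial genes that were not past the threshold in BAT were Cars2, Ears2, Mars2, Rars2, Tars2 and Wars2, for cysteine, glutamate, methionine, arginine, threonine and tryptophan, with changes from -0.37 for Wars2 to 0.17 for Ears2. For Cars2, Rars2, Tars2 and Wars2 the probe decided the call. The brightest Tars2 probe stood at 0.085 (adjusted p = 0.484), whereas its other probes changed by -0.42 (adjusted p = 0.00594) and -0.37 (adjusted p = 0.00864). The second probe of Wars2 changed by -0.65 (adjusted p = 0.00282), those of Rars2 by -0.48 (adjusted p = 0.00587) and -0.57 (adjusted p = 0.00202), and that of Cars2 by -0.27 (adjusted p = 0.0198). Of 31 further probes of 20 of the genes that could be tested, 23 had the sign of the brightest probe in BAT. The remaining 8 belonged to Ears2, Tars2, Farsa, Yars and Qars.

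The difference between the classes does not depend on how an array is scaled, since scaling moves all genes of an array together. In each array, the median over the mitochondrial genes was subtracted from that over the cytosolic genes, after each gene was set to 0 at the mean of its depot's controls. In BAT this difference averaged 0.0048 ± 0.060 (SD, n = 4) over the controls. Over the knockouts it averaged 1.14 ± 0.11 (SD, n = 4), and the lowest and highest of the 4 arrays were at 1.03 and 1.27. The cytosolic median alone was 0.53 ± 0.11 (SD, n = 4) in BAT knockouts and the mitochondrial median -0.61 ± 0.049 (SD, n = 4). The level of each class against 0, in contrast, follows the scaling. Spike-in controls moved the median of all genes in BAT from -0.081 to 0.47, and Actb and Rplp0 moved it to -0.67. Under spike-in scaling 17 cytosolic genes were higher and none lower, with Hars and Kars turned to 0.18 and 0.14, while 4 mitochondrial genes (Cars2, Ears2, Mars2 and Tars2) were higher and 4 lower. Under Actb and Rplp0 scaling, 4 cytosolic genes were higher and 5 lower (Dars, Hars, Kars, Mars1 and Qars). The values of Farsa, Farsb, Gars, Tars and Vars, which had risen, were then below 0 without being called lower. Of all 14280 genes, 9136 were called with spike-ins, 79.9% of them higher, and 10818 with Actb and Rplp0, 17.7% of them higher. Relative to the median of all genes, the cytosolic median was higher by 0.64 and the mitochondrial one stood at -0.54, the same under these scalings as under that of the 75th percentile.

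**Figure D3:**
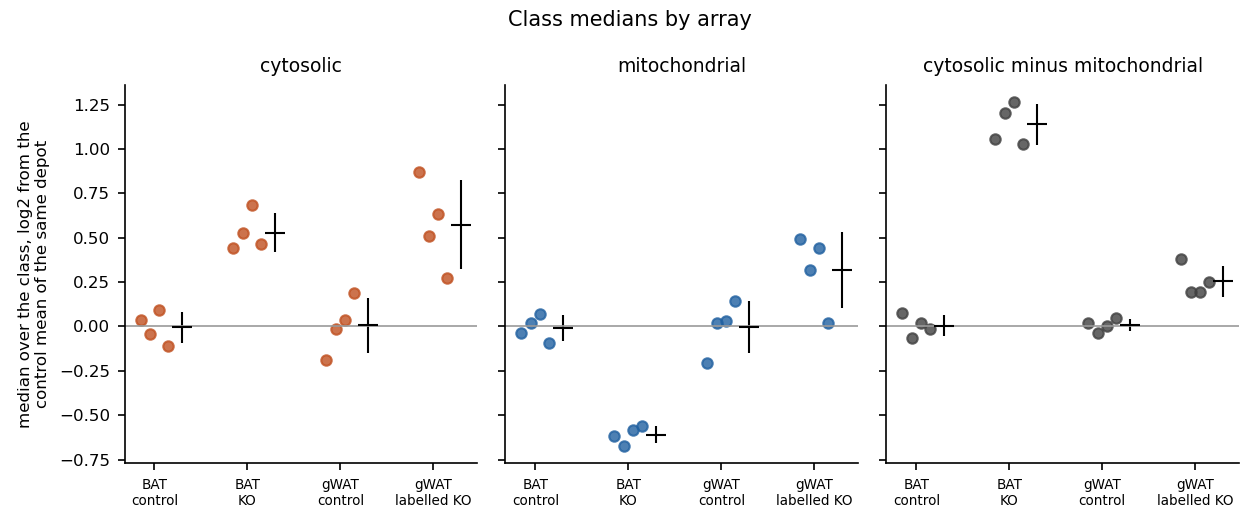
Median over the 20 cytosolic genes, the 16 mitochondrial genes and their difference (y axis, log2 from the control mean of the same depot) in each of the 16 arrays by group, with mean ± SD (n = 4). The difference runs from 1.03 to 1.27 in BAT knockouts and from 0.19 to 0.38 in gWAT with the KO label.

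The same separation was seen amino acid by amino acid. Of 16 pairs of a cytosolic and a mitochondrial gene for the same amino acid, in which Eprs served for Ears2 and Pars2, the cytosolic gene changed more positively in 15 in BAT, with a median difference of 1.29 on the log2 scale. In 9 pairs the cytosolic gene rose past the threshold and the mitochondrial gene fell past it. The widest gap was that of leucine, where Lars rose by 0.88 and Lars2 fell by 1.29, a difference of 2.18. Proline followed with 1.96, tryptophan with 1.91 and isoleucine with 1.86. Histidine differed from most, since Hars and Hars2 both fell. Methionine was the only pair in the opposite order, with Mars1 at -0.14 and Mars2 at 0.092, neither past the threshold. The difference within the pair did not overlap between control and knockout arrays in 15 pairs. The share for pairs of other genes was not computed, and the 57.1% of single genes is another measure.

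**Figure D4:**
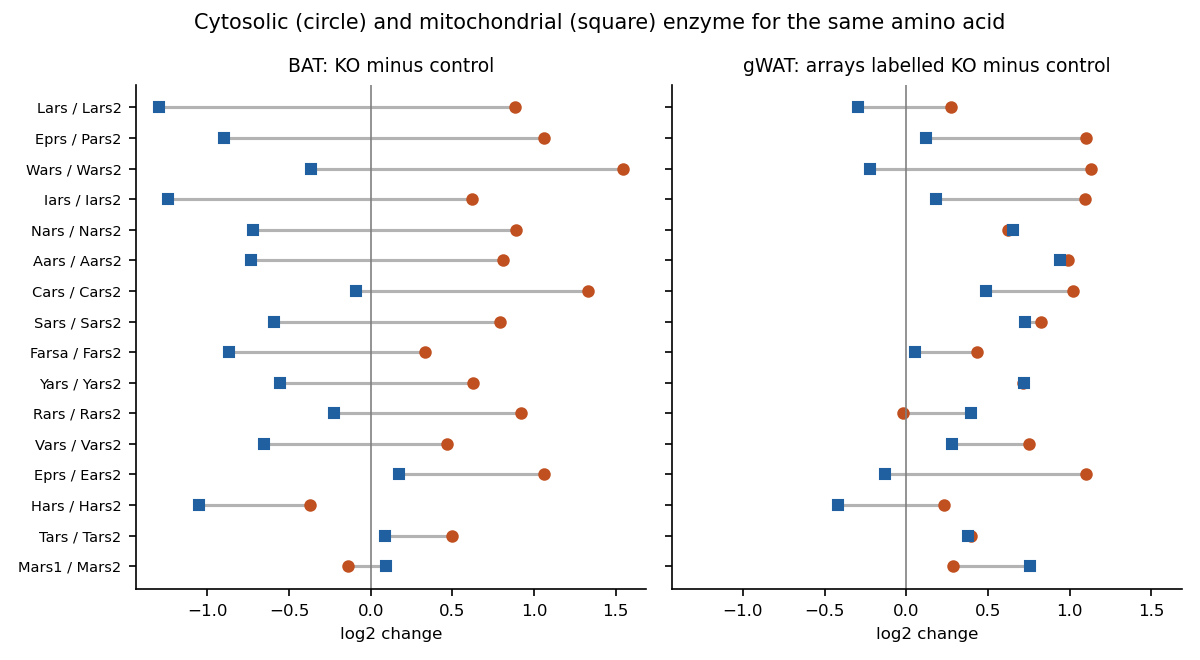
Log2 change (x axis) of the cytosolic (circle) and mitochondrial (square) gene for the same amino acid, joined by a line, in BAT (left) and gWAT (right), as values from limma, n = 4 against 4. In BAT the circle lies right of the square in 15 of 16 pairs with a median gap of 1.29, and in gWAT in 12 of 16 with a median gap of 0.42.

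Gars and Kars, which serve both compartments, went in opposite directions in BAT. Gars stood at 6.98, 6.88, 6.96 and 6.68 in controls and at 7.05, 7.21, 7.35 and 7.28 in Adipo-Pgam1 KO mice, a change of 0.35 (standard error 0.11, adjusted p = 0.0221). Kars stood at 4.68, 4.55, 4.64 and 4.50 in controls and at 4.14, 4.14, 4.19 and 4.26 in knockouts, a change of -0.41 (standard error 0.087, adjusted p = 0.00327). Neither overlapped between the groups, but Gars turned to -0.24 under Actb and Rplp0 scaling and Kars to 0.14 under spike-in scaling. In gWAT, Gars stood at 5.45, 5.70, 5.70 and 5.93 in controls and at 6.85, 6.64, 6.52 and 6.11 in the arrays labelled Adipo-Pgam1 KO, and rose by 0.83 (standard error 0.18, adjusted p = 0.0185). Kars stood at 3.57, 3.86, 3.83 and 4.16 against 4.47, 4.37, 4.48 and 4.05 there, and its change of 0.49 was not past the threshold (adjusted p = 0.0687). The lowest labelled KO array of Kars lay below the highest control.

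The BAT values came with changes in the makeup of the tissue. Of 8 macrophage markers all 8 rose, and their summed linear level, in units of the 75th percentile, was 17.7 to 28.5 for controls and 84.8 to 130.3 for knockouts. All 6 adipocyte markers fell, from a summed level of 2283 to 2498 in controls to 751 to 1037 in knockouts. Of 6 brown adipocyte markers 5 fell, from 3212 to 3435 in controls to 1124 to 1837 in knockouts, and all 4 fibroblast markers rose. The summed markers of T cells (3.36 to 5.79 for controls, 3.18 to 4.23 for knockouts), neutrophils (0.232 to 4.2 and 1.36 to 3.14) and endothelial cells (10.6 to 14.5 and 9.0 to 13.7) overlapped between the groups. The summed skeletal muscle markers ran from 0.396 to 1.07 for controls and from 0.881 to 78.3 for knockouts. The part of these shifts in the changes of the synthetase genes was not tested, and in whole tissue fewer cells of a type and less RNA per cell cannot be told apart. Leaving out any single BAT array left between 16 and 19 cytosolic genes and 10 mitochondrial genes past the threshold, and 7880 to 8712 of all 14280 genes. When the slide was added as a block, a fit that depends on the 1 control beside the knockouts, 14 cytosolic genes were higher and Qars was lower. In that fit 8 mitochondrial genes were lower and Ears2 and Mars2 were higher. It called 6677 of all 14280 genes, 45.1% of them higher, against 8776 genes without the block.

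Genes that act beside the synthetases were described from lists written by name. Of 20 genes for translation and transfer RNA in mitochondria, 15 fell and 1 rose in BAT, with a median log2 change of -0.57, where 34% of all genes were lower and 27.5% higher. Trit1, which modifies transfer RNA, fell by 1.65, Gatb by 1.55 and Tufm, the mitochondrial elongation factor, by 1.25. Gatb belongs with Gatc and Qrsl1 to the enzyme that makes glutaminyl-tRNA in mitochondria, by a route without a glutaminyl-tRNA synthetase. Gatc fell by 0.43, whereas Qrsl1 was the gene that rose, by 0.27 (adjusted p = 0.046). Of 20 cytosolic translation factors, 7 rose and 2 fell, with a median of 0.12, so that the share that rose was near that of all genes. Among the factors, Eif3a rose by 0.93 and Eif4g1 fell by 0.72.

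Of 26 genes tested in BAT from a list of Atf4 and genes of its pathway, 16 rose and 3 fell, with a median of 1.52. Of all genes tested in BAT, 27.5% were higher and 34% lower. Atf4 itself averaged 6.05 ± 0.36 (SD, n = 4) over the controls and 7.69 ± 0.11 (SD, n = 4) over the knockouts, a change of 1.64 (standard error 0.18, adjusted p = 8.22e-05). Psat1, for serine synthesis, rose by 4.89 (standard error 0.17, adjusted p = 8.94e-07), while Gdf15 and Fgf21, which were well above background on only 2 and 1 of the 4 control arrays, are given without a size. Asns, asparagine synthetase and an Atf4 target, was not past the threshold at 0.15 (adjusted p = 0.329). Of 15 interferon response genes 8 rose and none fell in BAT, with a median of 0.75. Among these, Ifit3 rose by 1.74 and Irf7 by 1.51.

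The promoters of the genes were searched for 3 motifs in the RefSeq table for GRCm38.p6, which gives 250 bases before and 50 after a start site and held an entry for 13 of the cytosolic and 14 of the mitochondrial genes. The motifs were TGATGCAA and TGATGNAAT, which overlap and resemble the composite element bound by Atf4 with C/EBP factors, and TGACGTCA, the cyclic AMP response element, each on both strands. TGATGCAA was found in 4 of 13 cytosolic promoters and in none of 14 mitochondrial ones, against 0.895% of all 32851 promoters. TGATGNAAT was found in 3 of the 13 and in none of the 14, against 0.965%. TGACGTCA was found in neither class, against 1.79% of all promoters. Either of the first motifs was present in 5 cytosolic promoters (38.5%), against 1.67% of all promoters. These 5 are printed 5′ to 3′ on the strand of the gene, because they are the cytosolic promoters that hold a motif, which is given in capitals. For Iars and Yars the motif lies after the start site, so only 30 bases are given.
Aars (chr8:111033689-111033777, plus strand): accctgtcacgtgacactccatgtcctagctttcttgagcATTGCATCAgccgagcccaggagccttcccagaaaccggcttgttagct
Gars (chr6:55037930-55038000, plus strand): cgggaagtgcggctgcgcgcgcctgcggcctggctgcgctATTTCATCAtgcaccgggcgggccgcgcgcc
Iars (chr13:49682126-49682155, plus strand): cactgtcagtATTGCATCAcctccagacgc
Tars (chr15:11399659-11399713, minus strand): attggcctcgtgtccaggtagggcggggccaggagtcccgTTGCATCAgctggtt
Yars (chr4:129189895-129189924, plus strand): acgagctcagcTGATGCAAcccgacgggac

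In Aars, Gars, Iars and Tars the motif reads on the opposite strand of the gene, and in Yars on the same strand. All 5 genes rose in BAT, by 0.35 to 0.81 with a median of 0.62, where 15 of all 20 cytosolic genes rose. Of the 8 cytosolic genes with a promoter entry and neither motif, 4 rose and 2 fell, with a median of 0.29, and Eprs, with 1.06, was the highest of them. Of the 7 without an entry in the table, among them Wars, Cars, Rars and Lars, 6 rose and 1 fell. Their median of 0.89 was above that of the genes with a motif. A link between motif and change was not tested. A match of letters is a description of the window and shows no binding.

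In gWAT, cytosolic enzymes again rose, while among the mitochondrial enzymes only Hars2 fell. Of the 20 cytosolic genes 10 rose and none fell, with a median log2 change of 0.59, and 8 of the 10 not past the threshold had a change above 0. Of the 16 mitochondrial genes 3 rose (Aars2, Cars2 and Yars2), 1 fell (Hars2) and 12 were not past the threshold, with a median of 0.33. Among all 14149 genes tested in gWAT 17.8% were past the threshold, 9.99% higher and 7.85% lower, with a median of 0.047. The change was above 0 for 18 cytosolic and 12 mitochondrial genes, against 54.3% of all genes. The groups did not overlap for 11 cytosolic and 5 mitochondrial genes, against 24.1% of all genes.

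Wars led the cytosolic genes in gWAT as it did in BAT. It stood at 4.05, 4.08, 4.34 and 4.44 in controls and at 5.90, 5.38, 5.44 and 4.73 in gWAT with the KO label, a change of 1.13 (standard error 0.24, adjusted p = 0.0159). Eprs stood at 3.49, 3.82, 4.0 and 4.26 in controls and at 5.40, 4.96, 5.13 and 4.50 in the labelled KO arrays, and changed by 1.1 (standard error 0.23, adjusted p = 0.0158). In both genes replicate 4 of the labelled KO arrays, from the younger mouse, was the nearest to the controls, without overlap. Iars stood at 1.16, 1.44, 1.05 and 1.45 in controls and at 2.73, 2.20, 2.41 and 2.14 in the labelled KO arrays, and changed by 1.09 (standard error 0.17, adjusted p = 0.0061). Cars stood at 2.67, 2.83, 2.67 and 2.95 in controls and at 4.16, 3.73, 3.74 and 3.60 in the labelled KO arrays, and changed by 1.02 (standard error 0.15, adjusted p = 0.00517). The other cytosolic genes that rose were Aars, Gars, Sars, Vars, Yars and Nars, by 0.62 to 0.99. Rars, the fourth in BAT, stood at -0.020 (adjusted p = 0.938) in gWAT, and its other probes at 0.37 and 0.38, neither past the threshold.

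Aars2, the mitochondrial alanine enzyme, rose in gWAT by 0.94 (standard error 0.18, adjusted p = 0.0138). Its level was 0.07, 0.16, 0.55 and 0.40 in controls and 1.62, 1.17, 1.27 and 0.88 in the arrays labelled Adipo-Pgam1 KO, without overlap. Yars2 stood at 1.57, 2.01, 1.95 and 2.11 in controls and at 2.91, 2.68, 2.70 and 2.24 in the labelled KO arrays, a change of 0.72 (standard error 0.18, adjusted p = 0.0296). Mars2 and Sars2 had changes of similar size but scattered more. Mars2 stood at -3.79, -3.34, -3.63 and -3.06 in controls and at -2.08, -2.72, -2.57 and -3.42 in the labelled KO arrays (change 0.76, adjusted p = 0.0951). Sars2 stood at -0.65, -0.78, -0.51 and -0.52 in controls and at 0.79, 0.09, 0.07 and -0.51 in the labelled KO arrays (change 0.72, adjusted p = 0.073). In both, replicate 4 of the labelled KO arrays lay among the controls. Hars2, the gene that fell, changed by -0.42 (standard error 0.12, adjusted p = 0.0429), but its other probes stood at 0.36 and -0.30, neither past the threshold. The second probe of Wars2 rose by 0.72 (adjusted p = 0.0311), while the brightest stood at -0.22. Other probes of Tars2, Rars2 and Pars2, whose brightest probes were not past the threshold, rose by 0.68 to 0.83, and those of the cytosolic Farsa by 0.64 and 0.86.

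Within gWAT the classes lay closer together. The cytosolic minus mitochondrial median averaged 0.0085 ± 0.034 (SD, n = 4) over the controls and 0.25 ± 0.089 (SD, n = 4) over the labelled KO arrays, from 0.19 to 0.38. With the second brightest probe of each gene in place of the brightest, the difference of the class medians was -0.056. The cytosolic gene changed more positively in 12 of 16 pairs, with a median difference of 0.42, and in none did the genes move past the threshold in opposite directions. The widest pair was tryptophan with 1.35. For alanine, asparagine, serine, threonine and tyrosine, the difference within the pair ran from -0.032 to 0.10.

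The gWAT calls depended on the slide and on single arrays. When the slide was added as a block, a fit that depends on 1 control, none of the 36 genes was past the threshold by limma, and 184 of all genes were. The class medians were then 0.36 and 0.16, the same as within that slide without a test. Without the block, the methods' t-test at an unadjusted p of 0.05 called 14 cytosolic and 6 mitochondrial genes, and 4673 of all 14149 genes. The count of cytosolic calls fell from 10 to 5 without control replicate 2, to 6, 5 and 4 without replicates 1, 2 and 3 of the labelled KO arrays, and was 12 without their replicate 4. That of mitochondrial calls, 4, was 2, 1, 2 and 2 without control replicates 1 to 4, 1 without each of the labelled KO replicates 1 to 3, and 7 without replicate 4. The calls over all 14149 genes moved as well, from 2525 to 1973, 1188, 1582 and 2137 without control replicates 1 to 4. Without the labelled KO replicates 1 to 4 they were 1168, 1285, 1143 and 3236. Of 8 macrophage markers 3 rose in gWAT, with a summed level of 57.5 to 83.5 for controls and 63.6 to 219.9 for the labelled KO arrays, and 1 of 6 adipocyte markers fell. The summed brown adipocyte markers were at 11.6 to 20.02 for controls and at 64.3 to 174.4 for the labelled KO arrays, and 3 of the 4 tested rose. The summed skeletal muscle markers were at 2.82 to 24.3 for controls and at 29.7 to 57.8 for the labelled KO arrays, without overlap. Of the 3 muscle markers tested none was past the threshold, 1 had a change above 0, and the median was -0.094. Acta1 averaged 3.28 in controls and 5.48 in the labelled KO arrays, while Mylpf (-3.36 and -3.45) and Tnnt3 (-2.70 and -3.33) were lower there. The part of these shifts in the synthetase changes was not tested.

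The neighbouring lists followed the classes only in part in gWAT. Of the 20 genes for mitochondrial translation 4 rose and none fell, with a median of 0.31, where 9.99% of all genes were higher and 7.85% lower, led by Qrsl1 with 1.26 and Gfm1, an elongation factor, with 0.70. The Atf4 list had 9 of 24 genes higher and none lower, with a median of 0.51, and Mthfd2, of mitochondrial one-carbon metabolism, rose by 3.49, although Atf4 itself stood at 0.034 (adjusted p = 0.952). Of 14 interferon response genes 4 fell and none rose, with a median of -0.32, among them Cxcl9 with -1.0 and Gbp3 with -0.68. The scaffold and related list had Tarsl2 and Aimp2 higher by 0.64 and 0.60. The cytosolic translation factors had 2 genes higher and none lower.

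The change in gWAT was tested against the change in BAT as an interaction over all 16 arrays. It was past the threshold for 18 of the 36 genes, against 48.3% of the 14820 genes tested (27.4% more positive in gWAT and 20.9% less). Of the mitochondrial genes, 12 were more positive in gWAT and none less, with a median difference of 0.93 on the log2 scale, beside a median of 0.075 over all genes. The difference was above 0 for 15 mitochondrial and 13 cytosolic genes, against 53.2% of all genes. Aars2 differed most, by 1.67 (standard error 0.21, adjusted p = 4.07e-05), followed by Iars2 with 1.43, Nars2 with 1.37, Sars2 with 1.32 and Yars2 with 1.27. Of the cytosolic genes 4 were more positive in gWAT (Kars, Qars, Hars and Mars1) and 2 less (Rars and Lars), with a median of 0.096. Kars and Qars, which fell in BAT, differed by 0.90 and 0.69, and Rars by -0.94 (standard error 0.15, adjusted p = 0.000223). The values of Qars and Rars are those of the brightest probe. The other Rars probes changed by 0.70 and 0.53 in BAT and by 0.37 and 0.38 in gWAT. The second probe of Qars stood at 0.064 in BAT and at -0.072 in gWAT. For Wars, Cars and Eprs the difference was not past the threshold (-0.41, -0.31 and 0.040). With the slide as a fixed block 5 genes were past it, Aars2, Iars2 and Nars2 more positive in gWAT and Rars and Cars less, while 3265 of all 14820 genes were. With the scan day as a block they were 10, and 4561 of all genes.

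The depots already differed in controls. The mitochondrial enzymes were higher in BAT than in gWAT of controls for 15 of 16 genes, with a median log2 difference of 1.40, the exception being Ears2 at 0.19 (adjusted p = 0.27). Over all 14304 genes tested, 67.7% differed, 37% higher and 30.7% lower in BAT, with a median of 0.097. Aars2 differed most, by 2.41 (standard error 0.15, adjusted p = 5.03e-09), a 5.32-fold higher level: it stood at 2.65, 2.75, 2.78 and 2.65 in BAT and at 0.07, 0.16, 0.55 and 0.40 in gWAT. Yars2 stood at 4.01, 4.03, 4.17 and 3.96 in BAT and at 1.57, 2.01, 1.95 and 2.11 in gWAT, a difference of 2.13 (standard error 0.15, adjusted p = 1.77e-08). Sars2 stood at 1.07, 1.39, 1.11 and 0.89 in BAT and at -0.65, -0.78, -0.51 and -0.52 in gWAT, a difference of 1.73 (standard error 0.20, adjusted p = 2.86e-06). The groups did not overlap for 15 of the 16 mitochondrial genes, against 60.8% of all genes, and the difference was above 0 for 16 of them and for 16 cytosolic genes, against 54.3%.

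Among the cytosolic genes, 8 were higher and 2 lower in BAT of controls, with a median of 0.30. The share that was higher was near the 37% of all genes, of which 30.7% were lower. These counts followed the scaling, with 16 higher and 1 lower under Actb and Rplp0 and 4 higher and 3 lower under spike-ins. Of all 14304 genes, 10309 were called under Actb and Rplp0, 70.9% of them higher, and 8549 under spike-ins, 41% of them higher. Gars differed most, by 1.18 (standard error 0.15, adjusted p = 5.89e-06), with 6.98, 6.88, 6.96 and 6.68 in BAT against 5.45, 5.70, 5.70 and 5.93 in gWAT. Iars followed with 1.1 (standard error 0.14, adjusted p = 8.71e-06), from 2.39, 2.52, 2.47 and 2.14 in BAT against 1.16, 1.44, 1.05 and 1.45 in gWAT. Mars1 stood at 1.80, 1.85, 1.98 and 2.08 in BAT and at 0.99, 1.32, 1.25 and 1.19 in gWAT, a difference of 0.74 (adjusted p = 6.32e-05), and Kars, the other gene that serves both compartments, also differed by 0.74. Rars and Lars were the genes lower in BAT, by -0.59 and -0.43. All 20 genes of the mitochondrial translation list were higher in BAT of controls as well, with a median of 1.02.

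Between the arrays labelled Adipo-Pgam1 KO, the depots lay closer together. Of the mitochondrial genes 9 were higher in BAT and none lower, with a median of 0.48, against 46.3% of all 14449 genes past the threshold (23.4% higher and 22.9% lower). The groups did not overlap for 9 mitochondrial and 7 cytosolic genes, against 43.1% of all genes, and the difference was above 0 for 14 and 16, against 53.2%. Aars2 differed by 0.74 here and by 2.41 in controls, and Iars2 stood at -0.093 (adjusted p = 0.562) here and at 1.33 in controls. These contrasts are parts of the interaction above, from the same arrays. Cars2, with 1.11 (adjusted p = 5.62e-06), had the largest difference in the class. Of the cytosolic genes 6 were higher in BAT, Wars the most by 0.76 (adjusted p = 0.00455), and Qars was lower by -0.35. The BAT and gWAT arrays labelled KO lie on different slides, and with the slide as a fixed block over all 16 arrays 7 genes were past the threshold instead of 16, and 1783 of all 14449 genes instead of 6693.

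**Figure D5:**
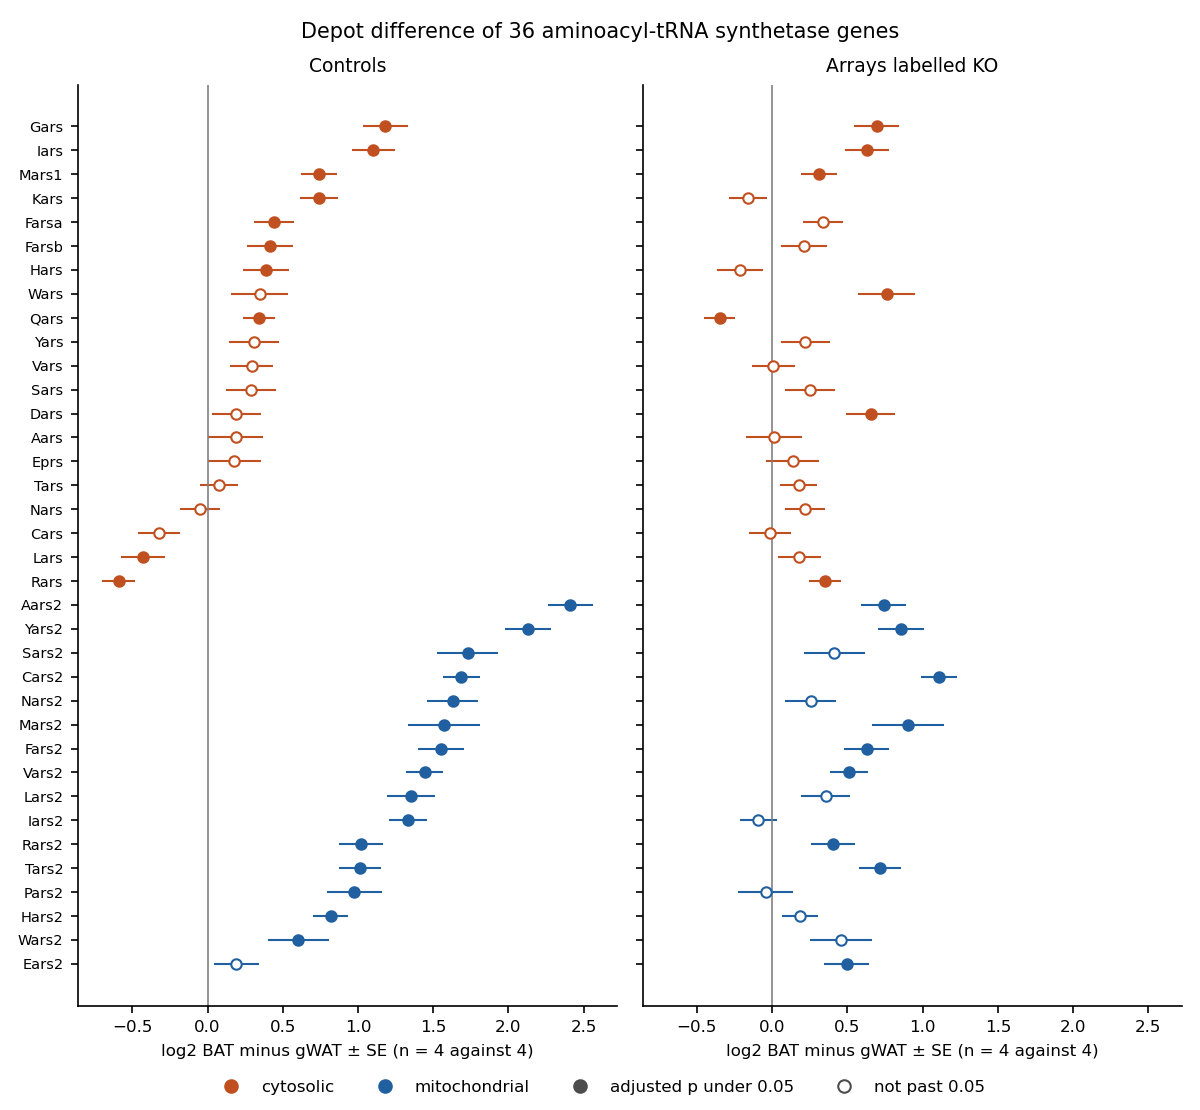
Log2 difference BAT minus gWAT (x axis) of the 36 genes in controls (left) and in the arrays labelled KO (right), as points with their standard error from limma, n = 4 against 4, filled where past an adjusted p of 0.05. The mitochondrial genes of controls all lie right of 0, with Aars2 at 2.41, and lie between -0.093 and 1.11 in the arrays labelled KO.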

How the data were processed

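RNA of 16 samples was hybridized to 1-colour Agilent SurePrint G3 Mouse GE arrays. The labels and the study's methods give different amounts of RNA per array. The authors deposited 1 scanner output per array, made with Agilent Feature Extraction 10.7.1.1, whose processed signal is a linear intensity with background and spatial trend subtracted, and whose quality marks are deposited as scores of 0 or 1 per spot. They also deposited a table of intensities normalized in GeneSpring on the linear scale, which differed from the values used here by a median of at most 0.0050 per array on the log2 scale.

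Irregular spots were dropped (at most 12 per array), and repeated spots were averaged per probe. Each array's log2 values were then set to 0 at its 75th percentile. The share of probes well above background ran from 50.0% to 62.2%, with no spot saturated. Through RefSeq accessions (GRCm38.p6), 32994 of 35886 probes were matched to 22911 symbols. A gene was represented by its brightest probe and tested if a compared group had it well above background on each of its 4 arrays. The fits used limma 3.58.1 in R 4.3.3 (lmFit, eBayes), with Benjamini-Hochberg adjustment over all genes tested and a threshold of 0.05. Genotypes were compared within each depot over 8 arrays, and the interaction and depot differences over 16. The fit was also run on simulated data with independent noise for each gene. That simulation held no slide or scaling effect, so it does not bear on such effects. The labels do not say that same-numbered samples share an animal, and p-values measure only the spread between these samples. Precision is limited by having 4 arrays a group.

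The members and lists were chosen with earlier results of these data known. Values in every array are given for the 4 largest changes of each class in each genotype comparison, the 3 largest depot differences of each class in controls, and Gars and Kars; of other lists at most the 3 most changed genes, with Atf4, Asns and Pgam1, and some others are named by role. Alternatives were quantile normalization, median centring, spike-in scaling, Actb and Rplp0 scaling, normexp (offset 50, on the median signal, as the mean signal was not used here), the authors' table, other filters and probes, slide, scan day and replicate number as blocks, the spread of all 16 arrays, the methods' t-test and leaving out each array.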

Additional observations from a re-analysis of the deposited data

Results flagged for a closer look

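The change differed between gWAT and BAT, by the interaction in limma, for 18 of the 36 genes, a share near the 48.3% of all genes. In the mitochondrial class the change in gWAT minus that in BAT was 1.67 for Aars2, 1.43 for Iars2, 1.37 for Nars2, 1.32 for Sars2, 1.27 for Yars2, 1.02 for Pars2 and 0.997 for Lars2. It was 0.93 for Vars2, 0.92 for Fars2, 0.63 for Hars2, 0.62 for Rars2 and 0.58 for Cars2. In the cytosolic class it was 0.90 for Kars, 0.69 for Qars, 0.60 for Hars, 0.43 for Mars1, -0.61 for Lars and -0.94 for Rars. For Qars and Rars this holds for the brightest probe, and the changes of their other probes lay closer together between the depots.

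Of 144 sets of 4 arrays, 1 for each gene and group, 7 held an array far from the other 3 by Dixon's ratio of the gap to the range, where chance gives about 1 in 20. In BAT of controls, replicate 4 was low for Ears2 (1.27 against 1.65 to 1.67, ratio 0.937) and for Iars2 (3.16 against 3.40 to 3.45, ratio 0.831). In BAT of Adipo-Pgam1 KO mice, replicate 1 was low for Farsb (ratio 0.864) and Yars (ratio 0.917), and replicate 3 was high for Iars (ratio 0.9). In gWAT, control replicate 4 was high for Vars (0.74 against 0.28 to 0.34, ratio 0.867), and the labelled KO replicate 4 was low for Fars2 (3.72 against 4.21 to 4.29, ratio 0.851).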

How the results depend on the processing

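In BAT, 15 or 16 of 16 pairs had the cytosolic gene more positive under every alternative, and the class medians differed by 1.1 to 1.26. The cytosolic median was 0.68 under quantile normalization, 1.11 under spike-in scaling and reversed to -0.032 under Actb and Rplp0 scaling. Under the last, 9 cytosolic and 16 mitochondrial genes were called, and 10818 of all 14280 genes. The mitochondrial median was -0.075 with spike-ins, -1.21 with Actb and Rplp0, -0.52 with normexp and -0.53 with the slide block or within the slide. Of all genes called in BAT, 44.7% were higher, against 79.9% with spike-ins and 17.7% with Actb and Rplp0. In gWAT that share was 56.0%, against 95.2% with spike-ins and 71.1% with median centring, and for the interaction 56.7% against 83.7% with Actb and Rplp0. In the depot comparison it was 54.6% in controls, against 41.0% and 70.9%, and 50.5% in the arrays labelled KO, against 32.2% and 28.5%, with spike-ins and with Actb and Rplp0.

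In gWAT, spike-in scaling gave 18 cytosolic and 12 mitochondrial calls with medians of 1.03 and 0.77, and called 5110 of all 14149 genes. The mitochondrial calls were 1 with median centring (1388 of all genes) and 7 with the spread of all 16 arrays (4040 of all genes). They were 7 with the second brightest probe (median 0.67), which reversed the class difference to -0.056. Without a filter on dim probes, 5 and 1 were called (1138 of all genes, against 2525), and with the slide or scan day as a block 0 and 0 (184 of all genes). By the methods' t-test after adjustment 6 cytosolic genes were called, and 1618 of all genes. Whether same-numbered samples share an animal is not known. Correlations of their deviations ran from -0.12 to 0.51 and cannot decide it, since slide and array effects enter them too. The fits over 16 arrays treated the arrays as independent. With the replicate number as a block 2 and 0 were called in gWAT, and 1087 of all genes. Leaving out 1 array gave 4 to 12 cytosolic and 1 to 7 mitochondrial calls, and 1143 to 3236 calls over all genes. The interaction had 29 calls with Actb and Rplp0 (8563 of all 14820 genes), 5 with the slide block (3265) and 10 with the scan day (4561). With these blocks the depot comparison in the arrays labelled KO had 7 and 6 (1783 and 1767 of all 14449 genes).

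Of 51 single-gene results followed (28 in BAT, 17 in gWAT and 6 between depots in controls, all past the threshold except Kars, Mars2 and Sars2 in gWAT), 11 values changed sign. In BAT under spike-in scaling Hars became 0.18 and Kars 0.14; under Actb and Rplp0 scaling Farsa became -0.26, Farsb -0.23, Gars -0.24, Tars -0.094 and Vars -0.13; with the second brightest probe Qars became 0.064 and Yars -0.064. In gWAT Hars2 became 0.015 with spike-ins and 0.36 with the second brightest probe. A further 144 values kept their sign but were no longer past the threshold. Of the gWAT genes, Yars lost its call in 15 of 25 alternatives, Nars, Cars2 and Hars2 in 13 each, and Yars2 in 12. Cars and Iars lost theirs in 2 each. Of the BAT genes not past the threshold, Dars, Ears2, Mars2 and Tars2, above 0, were called lower under Actb and Rplp0 scaling, and Cars2, below 0, was called higher with spike-ins. The cause was not tested.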
